A study of Mus musculus with 15 samples.

Results

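The comparison set secondary tumours of the Myc type against tumours of the Sonic hedgehog (Shh) type, in mouse models of medulloblastoma, a tumour of the cerebellum. It took all 3 arrays whose source was given as secondary tumours of the Myc type and all 3 whose source was given as Shh tumours, 6 of the 15 arrays of the series. Every probe set listed with 1 gene was used, 28898 probe sets for 17097 genes. The Myc secondary tumours grew from cells that were cultured as spheres out of primary Myc tumours and then transplanted orthotopically. The primary tumours themselves came from Cdkn2c-/-, Trp53-/-, Atoh1-GFP cerebellar cells that were infected with Myc and placed in the cerebral cortex of nude mice, hosts without mature T cells. The labels do not give the host of the secondary tumours, the number of primary tumours behind them, or any strain, age or sex. The Shh tumours arose spontaneously in Cdkn2c-/-; Trp53 Fl/Fl; Nestin-Cre mice, in which Cre from the Nestin promoter acts in neural stem and progenitor cells. Loss of Cdkn2c, and deletion of Trp53, germline in 1 model and by Cre in the other, were thus common to both kinds of tumour. The introduced Myc, the Atoh1-GFP cerebellar cells that received it, the sphere culture and the transplantation differed together and cannot be told apart. Any difference in host, which is not given for the secondary tumours, cannot be told apart from these either. The series also holds 3 Myc primary tumours and 6 arrays of GFP-positive and GFP-negative cells, which entered the fit. The design text calls these 6 samples cells sorted from Cdkn2c-/-, Trp53-/-, Atoh1-GFP cerebella at postnatal day 6, whereas their sample labels call them spontaneous tumour, and the design text was followed. Tumour cells had been dissociated and purified on a Percoll density gradient before RNA extraction.

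Shh is the ligand that makes granule neuron progenitors of the cerebellum divide. It binds the receptor Ptch1, which frees Smo, and the signal ends in the Gli transcription factors, whose targets include Gli1, Ptch1, Hhip, Mycn and Ccnd1. Myc is a transcription factor that binds E-boxes as a dimer with Max and is known for driving genes of ribosome biogenesis, nucleotide synthesis and glycolysis.

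Levels were log2 signals of 1-colour Affymetrix HT_MG-430_PM arrays, which ran from 2.661 to 14.125. Differences are log2 values of Myc secondary minus Shh tumours with the standard error of a linear model over the 15 arrays. Genes were said to rise or fall where the p-value, adjusted over all 28898 probe sets, was below 0.05. Background was set at 4.77, the 95th percentile over 23 nonspecific control probe sets, and where a group mean lay below it the size of a difference was set by that floor. Mean correlations across probe sets with the other arrays of the own group were 0.962, 0.978 and 0.978 for Myc secondary 1, 2 and 3, against 0.98 to 0.984 for the Shh arrays. Xist, the RNA that silences 1 X chromosome in females, was at 12.38 in Shh 3 and at 5.01 to 7.99 on the other 5 arrays. Eif2s3y, which is Y-linked, was at 3.51 in Shh 3 and at 7.84 to 9.34 on the others. Myc secondary 1 also stood apart. The mean level of the 4 sex-linked genes was 5.53, 7.52 and 7.49 on the secondary arrays, against 7.47, 6.95 and 5.62 on the Shh arrays. For 3 Y-linked genes above background, the median relative to the 15-array mean was -0.71, 0.49 and 0.49, against 0.79, 0.21 and -2.97. None of the 4 sex-linked genes passed the test or had an unadjusted p below 0.05. Separate animals are not stated in the labels, so p-values describe only how far these arrays spread, which may be technical. The sample titles fall into 2 runs of numbers, all secondary arrays in the later and all Shh arrays in the earlier, so that title run and tumour type cannot be told apart; a term for the run could be estimated only through 1 GFP-negative array.

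Of the 17097 genes, 3875 (22.7%) differed between Myc secondary and Shh tumours. In the secondary tumours 1789 genes rose (10.5%) and 2086 fell (12.2%). With at least a 2-fold change there were 853 that rose (4.99%) and 1399 that fell (8.18%). The median difference of all genes was 0.075. Without adjustment 5879 genes (34.4%) had a p below 0.05, and in 7241 genes (42.4%) the 3 arrays of one group did not overlap those of the other, among them 3763 of the 3875. Both group means lay below background for 265 of the 3875 genes. Of the 2024 differing genes with more than 1 probe set, 675 were called the same way by every probe set. Centring each array on its median turned the split to 2506 higher and 1745 lower, so that 59.0% of the calls were rises, against 46.2% on the deposited values.

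Of the deleted genes Cdkn2c, which encodes the inhibitor of CDK4 and CDK6 called p18, was below background on all 6 arrays, at 4.12, 4.08 and 4.001 in the secondary tumours, against 3.46, 3.39 and 3.41 in the Shh tumours. The test called it higher (0.65 ± 0.10, adjusted p = 0.00063), with both levels under the floor. For Trp53 no probe set was assigned to that gene alone, so it has no value.

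Genes of the Shh pathway were lower in the secondary tumours: of 20 measured genes 11 fell (55.0%, against 12.2% of all genes) and the other 9 did not pass, with a median difference of -0.81. With the probe sets of each gene averaged 8 fell and 1 rose, with a median of -0.26. Gli1, the transcription factor whose level reads out Shh signalling, had signals of 3.66, 4.31 and 4.33 in the secondary tumours, against 9.05, 9.38 and 9.58 in the Shh tumours. All 3 secondary arrays lay below background and all 3 Shh arrays far above it (difference -5.24 ± 0.27, adjusted p = 1e-07). Gli2, the main activator at the end of the pathway, read 4.69, 6.87 and 7.31 in the secondary tumours, against 9.23, 9.05 and 9.29 in the Shh tumours. The groups did not overlap (-2.90 ± 0.54, adjusted p = 0.002), and Myc secondary 1 was the lowest array. Boc, a co-receptor that binds Shh, read 4.99, 5.23 and 5.47 in the secondary tumours, against 8.84, 8.74 and 9.63 in the Shh tumours. The groups lay more than 3 log2 units apart (-3.84 ± 0.25, adjusted p = 9.2e-07). Sfrp1, a secreted Wnt modulator that marks Shh medulloblastoma, showed the largest fall of all named genes, with 4.32, 3.99 and 4.84 in the secondary tumours, against 11.20, 11.73 and 12.02 in the Shh tumours (-7.27 ± 0.25, adjusted p = 5.8e-09).

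Hhip, a decoy receptor that binds Shh, read 3.80, 6.91 and 6.29 in the secondary tumours, against 7.29, 8.66 and 7.82 in the Shh tumours. The groups did not overlap, but the call of Hhip (-2.26 ± 0.66, adjusted p = 0.028) rested on single arrays. The difference was -1.32 without Myc secondary 1, -1.89 without Shh 2 and -2.31 without Shh 3, and none of these passed. Ccnd1, cyclin D1, read 10.41, 10.22 and 10.18 in the secondary tumours, against 11.74, 11.70 and 11.86 in the Shh tumours, a smaller step with no overlap (-1.50 ± 0.22, adjusted p = 0.00046). Ptch1, the Shh receptor and a target of the pathway, was not among the genes that fell. Its signals were 10.15, 9.65 and 9.55 in the secondary tumours, against 9.90, 7.03 and 4.56 in the Shh tumours. The Shh tumours were spread over more than 5 log2 units, with Shh 1 among the secondary tumours and Shh 3 below background. The difference of 2.62 ± 0.89, adjusted p = 0.052 did not pass the test, was 3.99 and passed without Shh 1, and was 1.32 without Shh 3. It also passed on the mean of the probe sets, without dim probe sets, after median centring, with an intensity trend and with array weights.

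**Figure D1:**
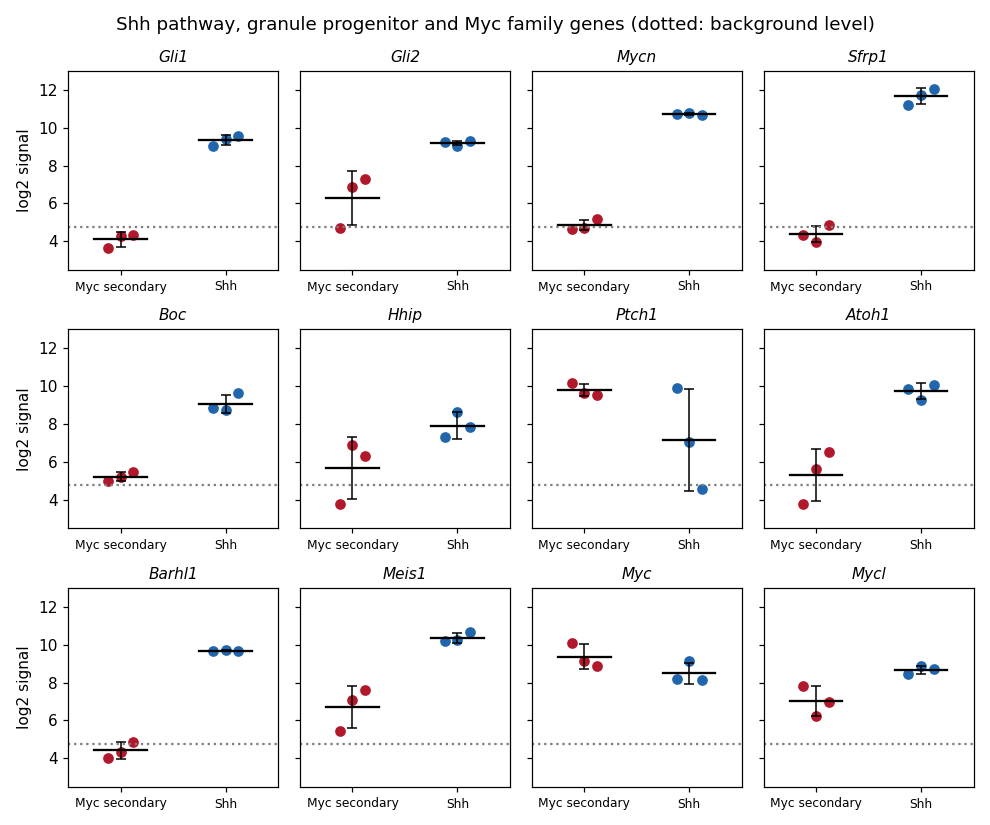
Log2 signal on each array of 12 genes of the Shh pathway, of granule neuron progenitors and of the Myc family, with Myc secondary tumours left of Shh tumours. Points are arrays, horizontal lines are means, bars are the SD of 3 arrays and the dotted line is the background level of 4.77. Gli1 and Sfrp1 lie apart between the groups, while the Shh arrays of Ptch1 range over 4.56 to 9.90.

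Genes of granule neuron progenitors, the cells in which Shh medulloblastoma arises, were also lower. Of 11 measured, 7 fell and 1 rose (72.7% called, against 22.7% of all genes), with a median difference of -2.01. Barhl1, a homeobox factor of the granule lineage, read 4.02, 4.35 and 4.87 in the secondary tumours, against 9.67, 9.70 and 9.66 in the Shh tumours. The Shh arrays agreed to within 0.1 log2 and all secondary arrays stood at or near background (-5.26 ± 0.22, adjusted p = 1.8e-08). Atoh1, the master regulator of the granule lineage, read 3.79, 5.64 and 6.52 in the secondary tumours, against 9.87, 9.28 and 10.06 in the Shh tumours. Myc secondary 1 was the lowest and below background, while the other secondary arrays kept a signal above it (-4.42 ± 0.52, adjusted p = 8e-05). Meis1, a homeobox cofactor of these progenitors, read 5.45, 7.07 and 7.61 in the secondary tumours, against 10.20, 10.22 and 10.68 in the Shh tumours (-3.66 ± 0.42, adjusted p = 7.1e-05). Zic5, a zinc finger factor of the cerebellum, read 6.11, 6.02 and 6.52 in the secondary tumours, against 8.33, 8.13 and 8.24 in the Shh tumours (-2.01 ± 0.25, adjusted p = 0.00014). In bulk RNA, fewer cells of a type and less RNA per cell cannot be told apart.

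Neuronal genes moved the same way. Of 22 genes of granule and other neurons 12 fell and 1 rose (59.1% called, against 22.7% of all genes). Their median was -1.24. Etv1, a transcription factor of maturing granule neurons, read 4.56, 4.25 and 4.43 in the secondary tumours, against 8.42, 7.99 and 8.10 in the Shh tumours (-3.76 ± 0.28, adjusted p = 2.6e-06). Ncam1, a neural adhesion molecule, read 8.89, 8.53 and 8.53 in the secondary tumours, against 10.51, 10.25 and 10.52 in the Shh tumours (-1.78 ± 0.15, adjusted p = 8e-06), a smaller difference at a high level in both tumours. Stmn3, a microtubule regulator of neurons, fell by 2.03. The gene that rose was Nefh, the heavy neurofilament chain, with 8.80, 6.77 and 7.57 in the secondary tumours, against 3.72, 3.73 and 3.37 in the Shh tumours. All Shh arrays of Nefh were below background, and the secondary arrays ranged over 2 log2 units (4.10 ± 0.37, adjusted p = 1.2e-05).

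Transcription factors of neural stem cells and of brain regions were mixed. Of 18 neural stem cell genes 5 fell and 2 rose (38.9% called, against 22.7% of all genes), with a median of -0.14. Pou3f3, a neural POU factor, read 3.41, 3.48 and 3.72 in the secondary tumours, against 9.47, 9.92 and 9.51 in the Shh tumours (-6.10 ± 0.36, adjusted p = 3.6e-07). Sox9, a factor of glial and stem cells, read 3.85, 4.13 and 4.21 in the secondary tumours, against 9.04, 8.93 and 9.11 in the Shh tumours (-4.96 ± 0.25, adjusted p = 8.7e-08). Sox2, a stem cell factor, fell by 3.15 with a spread of 4.08, 5.21 and 6.33 in the secondary tumours, against 7.96, 8.58 and 8.53 in the Shh tumours. Prom1, a surface protein used to isolate stem cells, rose, with 9.70, 10.53 and 10.62 in the secondary tumours, against 8.74, 8.94 and 8.66 in the Shh tumours (1.51 ± 0.33, adjusted p = 0.0056). Of 22 genes of regional identity 7 fell and 1 rose (36.4% called, against 22.7% of all genes). Their median was -0.03, and 12 were below background in both tumours. Otx2, a homeobox factor of the posterior cerebellum and of several medulloblastoma subgroups, read 3.83, 3.76 and 3.42 in the secondary tumours, against 9.14, 8.83 and 9.12 in the Shh tumours (-5.36 ± 0.63, adjusted p = 8.4e-05). Otx1, its paralogue, read 3.30, 3.47 and 3.47 in the secondary tumours, against 8.58, 7.91 and 7.89 in the Shh tumours (-4.71 ± 0.23, adjusted p = 6.8e-08). Irx2, an Iroquois homeobox factor, fell by 2.80 (3.81, 3.73 and 4.54 in the secondary tumours, against 6.89, 6.93 and 6.65 in the Shh tumours).

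Of 13 genes of forebrain interneurons 3 homeobox factors rose (23.1%, against 10.5% of all genes) and the others did not pass, while 10 were below background in both tumours and the median was 0.19. Lhx8, a LIM factor of forebrain cholinergic neurons, read 8.06, 7.62 and 7.42 in the secondary tumours, against 3.31, 3.42 and 3.45 in the Shh tumours (4.31 ± 0.19, adjusted p = 3.7e-08). Dlx1, which specifies GABAergic interneurons, read 7.34, 6.76 and 7.19 in the secondary tumours, against 3.92, 3.88 and 3.84 in the Shh tumours (3.22 ± 0.15, adjusted p = 4.7e-08), and Dlx2, its neighbour on chromosome 2, read 5.12, 4.78 and 5.81 in the secondary tumours, against 3.91, 3.85 and 3.63 in the Shh tumours (1.44 ± 0.32, adjusted p = 0.0067). No Shh array reached background for any of the 3 genes. Of 10 genes of cerebellar GABAergic and Purkinje neurons, Lhx1 fell by 1.25 and Rora fell by 0.91, and the others did not pass.

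The Myc family did not move as a unit. Of 13 genes of the Myc and Max network, 2 fell (15.4%, near the 12.2% of all genes) and 11 did not pass. Myc read 10.10, 9.12 and 8.88 in the secondary tumours, against 8.19, 9.13 and 8.15 in the Shh tumours; the groups overlapped, Myc secondary 1 being the highest array and Shh 2 lying above Myc secondary 2 and 3 (0.87 ± 0.73, adjusted p = 0.45). Without Myc secondary 1 the difference was 0.50. Mycl read 7.82, 6.25 and 6.997 in the secondary tumours, against 8.44, 8.88 and 8.71 in the Shh tumours (-1.66 ± 0.36, adjusted p = 0.0051). Mycn was read by 3 probe sets that disagreed. The brightest read 4.68, 4.73 and 5.16 in the secondary tumours, against 10.71, 10.75 and 10.64 in the Shh tumours, and the next read 5.37, 5.64 and 4.99 in the secondary tumours, against 8.88, 8.50 and 8.91 in the Shh tumours. Both fell in the secondary tumours (-5.84 ± 0.20, adjusted p = 5.8e-09 and -3.43 ± 0.20, adjusted p = 4.1e-07). The third read 13.26, 12.97 and 12.93 in the secondary tumours, against 4.37, 4.39 and 4.11 in the Shh tumours. That rise (8.76 ± 0.14, adjusted p = 1.9e-12) was the largest of all 28898 probe sets. The third probe set read 13.14 on average in Myc primary tumours too, and 4.19 in GFP-positive and 3.98 in GFP-negative cells. The labels name the introduced gene only as Myc, and whether the third probe set reads the introduced sequence was not tested. Where in the gene each probe set lies was not given, and the mean of the 3 probe sets differed by -0.17 and did not pass.

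Nearly the whole list of ribosome biogenesis genes was higher in the secondary tumours. Of 35 genes measured 34 rose (97.1%, against 10.5% of all genes), with a median difference of 1.19, and the mean level of the list was 10.31, 10.56 and 10.48 on the secondary arrays, against 9.26, 9.16 and 9.39 on the Shh arrays. Ncl, nucleolin, was the gene that did not pass. Nop16, a nucleolar protein, read 10.95, 10.78 and 10.83 in the secondary tumours, against 7.63, 7.98 and 8.62 in the Shh tumours (2.77 ± 0.27, adjusted p = 2.4e-05). Rcl1, which acts in processing of the small subunit's RNA, read 9.94, 9.98 and 10.001 in the secondary tumours, against 8.16, 8.21 and 8.39 in the Shh tumours (1.72 ± 0.17, adjusted p = 1.9e-05). Nolc1, a nucleolar chaperone of small ribonucleoproteins, read 11.21, 11.27 and 11.02 in the secondary tumours, against 9.33, 9.60 and 9.68 in the Shh tumours (1.63 ± 0.15, adjusted p = 1.5e-05), and Tmem97, a membrane protein placed in this list as a reported Myc target, read 9.47, 9.96 and 9.91 in the secondary tumours, against 8.04, 7.98 and 8.07 in the Shh tumours (1.75 ± 0.16, adjusted p = 1.4e-05). In these 4 genes each secondary array stood above every Shh array. The groups did not overlap in 3763 of the 3875 differing genes either, so this is no trait of these 4.

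**Figure D2:**
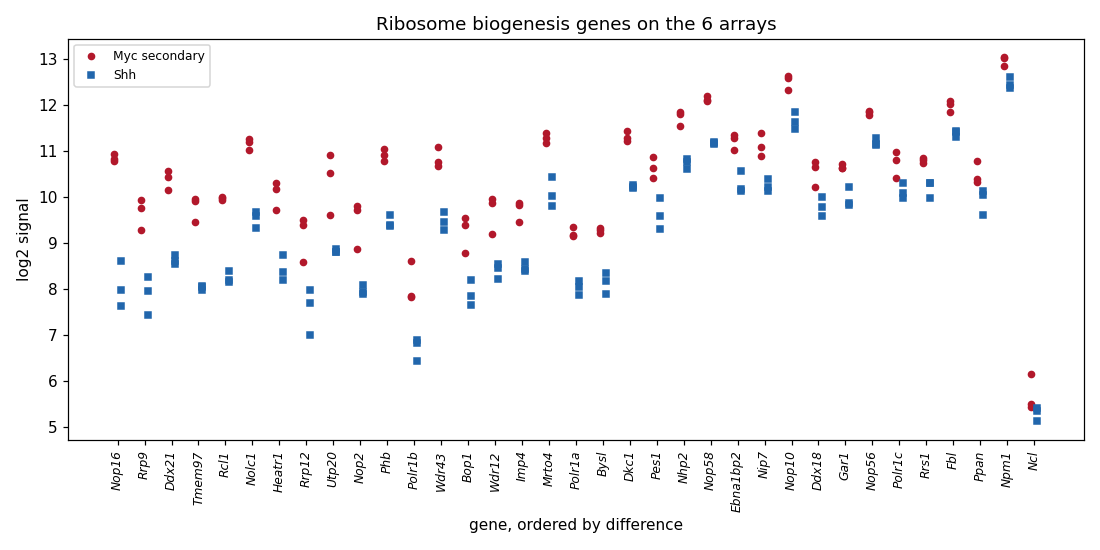
Log2 signal of the 35 measured genes of the ribosome biogenesis list on each of the 6 arrays, ordered from the largest to the smallest difference. Circles are Myc secondary arrays and squares are Shh arrays. The circles lie above the squares for all 35 genes, with Ncl the lowest in level and in difference. Among all genes the groups did not overlap, in either direction, in 42.4%.

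The E-box CACGTG, a palindrome read the same on both strands and the sequence that Myc and Max bind, was looked for in the RefSeq promoter windows of build GRCm38.p6, 250 bases before to 50 after each start. It was held by 6 of 32 windows of the ribosome biogenesis list (18.8%), by 234 of 1764 windows of genes that rose (13.3%), by 182 of 2230 windows of genes that fell (8.16%), by 1483 of 17065 windows of measured genes (8.69%) and by 2349 of 32851 windows in all (7.15%). The genes of the ribosome biogenesis list that hold the motif upstream of the start are shown for that reason. The motif is in capitals, and the match itself is no finding. These 3 are Imp4, a protein of the small-subunit processome, Nop2, a ribosomal RNA methyltransferase, and Phb, prohibitin, and the end of the motif lies 115, 54 and 226 bases before the start, on the plus strand at chr1:34439681-34439740, chr6:125131796-125131855 and chr11:95666707-95666757.
Imp4: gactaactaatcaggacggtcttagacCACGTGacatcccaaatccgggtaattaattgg
Nop2: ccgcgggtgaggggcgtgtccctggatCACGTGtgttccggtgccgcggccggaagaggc
Phb: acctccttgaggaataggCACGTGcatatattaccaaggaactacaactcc
All 3 genes were among the 34 that rose, and the motif says nothing by itself about binding in these tumours. The Gli motif GACCACCCA, searched on both strands, was in none of the 15 windows of the Shh pathway list and in 0.253% of all windows. At that share a match in 15 windows was unlikely beforehand, so the count says nothing about Gli sites in this list. Only 14 of its 20 genes had a window, and Gli1, Ccnd1, Ccnd2, Boc, Sfrp1 and Shh had none.

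Enzymes of nucleotide and one-carbon synthesis were higher as well. Of 17, 11 rose (64.7%, against 10.5% of all genes) and the other 6 did not pass, with a median of 0.835. Without Myc secondary 2, or without Shh 1, 7 rose. Ppat, the first enzyme of purine synthesis, read 9.95, 10.07 and 9.99 in the secondary tumours, against 8.80, 8.72 and 8.33 in the Shh tumours (1.39 ± 0.16, adjusted p = 7.8e-05). Shmt1, which moves one-carbon units from serine to folate, read 9.77, 10.38 and 10.14 in the secondary tumours, against 8.30, 8.37 and 8.70 in the Shh tumours (1.64 ± 0.31, adjusted p = 0.0025). Prps1, which makes the ribose donor of nucleotides, rose by 1.04 and Pfas, a purine enzyme, by 1.001. In polyamine synthesis 3 of 7 genes rose and 1 fell (57.1% called, against 22.7% of all genes). Oaz2, an inhibitor of ornithine decarboxylase, fell and lost its call without any single array (-0.71 to -0.56). Sat1, which acetylates polyamines, lost its rise of 1.02 without Myc secondary 2 or 3 or Shh 1 or 2 (0.95 to 1.06). Srm, spermidine synthase, read 12.10, 12.18 and 12.11 in the secondary tumours, against 10.47, 10.42 and 10.61 in the Shh tumours (1.63 ± 0.21, adjusted p = 0.00014), with no overlap. Odc1, ornithine decarboxylase, rose by 0.81 and did not pass without Shh 2 (0.69). Of 10 amino acid transporters Slc3a2, the heavy chain of several transporters, fell by 0.51, and the call was lost when any of 5 of the 6 arrays was left out.

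Of 23 genes of glycolysis and hypoxia 13 rose (56.5%, against 10.5% of all genes). The other 10 did not pass, and the median was 1.30. Pdk1, the kinase that holds pyruvate back from the mitochondrion, read 10.63, 9.86 and 9.65 in the secondary tumours, against 4.06, 4.81 and 5.11 in the Shh tumours (5.39 ± 0.38, adjusted p = 1.7e-06). Car12, a hypoxia-induced carbonic anhydrase, read 7.52, 8.26 and 7.88 in the secondary tumours, against 3.26, 3.28 and 3.30 in the Shh tumours (4.60 ± 0.41, adjusted p = 1.1e-05), with every Shh array below background. Pgk1 and Tpi1 are enzymes of glycolysis that are bright in both tumours. Pgk1 read 11.89, 12.30 and 12.22 in the secondary tumours, against 10.40, 10.29 and 10.38 in the Shh tumours (1.78 ± 0.16, adjusted p = 1.4e-05), and Tpi1 read 11.14, 11.63 and 11.67 in the secondary tumours, against 10.05, 9.88 and 9.43 in the Shh tumours (1.69 ± 0.20, adjusted p = 9.6e-05).

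Cell cycle genes were counted by phase. Of 21 cyclins, kinases and inhibitors of G1, 8 fell and 2 rose (47.6% called, against 22.7% of all genes), with a median of -0.41. With the probe sets of each gene averaged 6 fell and 4 rose, with a median of 0.018. Cdk6, a kinase that works with D-type cyclins, read 5.80, 4.05 and 5.11 in the secondary tumours, against 10.47, 10.97 and 10.57 in the Shh tumours (-5.68 ± 0.37, adjusted p = 7.3e-07). Rb1, the retinoblastoma protein that these kinases phosphorylate, read 8.22, 7.75 and 8.21 in the secondary tumours, against 10.18, 9.94 and 9.50 in the Shh tumours (-1.81 ± 0.26, adjusted p = 0.00038). Ccne1, cyclin E1, rose instead, with 8.63, 7.82 and 8.30 in the secondary tumours, against 6.43, 6.80 and 6.67 in the Shh tumours (1.62 ± 0.22, adjusted p = 0.00025). Of 18 DNA replication genes 2 rose (11.1%, near the 10.5% of all genes), Cdt1, the licensing factor, by 0.94 ± 0.13 and Pola1, a DNA polymerase subunit, by 0.94 ± 0.26; the call of Pola1 was lost without Myc secondary 2 (0.79), Myc secondary 3 (0.80), Shh 1 (0.89) or Shh 3 (0.91). Without Myc secondary 1, 5 of the replication genes rose. Of 17 mitotic genes 2 rose and 2 fell, shares near those of all genes (10.5% and 12.2%), against 8 and 1 after median centring, and 5 rose without Shh 3. Plk1, a mitotic kinase, read 8.72, 9.01 and 8.93 in the secondary tumours, against 7.81, 8.08 and 7.58 in the Shh tumours (1.07 ± 0.24, adjusted p = 0.0064), and Bub1b, a spindle checkpoint kinase, rose by 0.88. Ccnb2, cyclin B2, fell by 0.69, a call lost without any single array but Shh 1. Foxm1, a transcription factor, fell by 0.57 and was lower on 3 of its 4 probe sets, a call lost without Shh 2. Of 15 p53 targets 2 rose and 2 fell, again near the shares of all genes: Perp, a membrane protein, rose by 2.09 and Pmaip1, a pro-apoptotic Bcl2 family member, fell by 3.66. Aen, a p53-induced nuclease, rose by 0.92, a call lost on the 6 arrays alone and without Myc secondary 2 (0.74), Myc secondary 3 (0.80), Shh 1 (0.95) or Shh 2 (0.71).

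Signalling genes with large differences included ligands and receptors. Of 27 growth factors and receptors 9 fell and 4 rose (48.1% called, against 22.7% of all genes). Igfbp2, an IGF-binding protein, read 11.14, 10.997 and 11.17 in the secondary tumours, against 7.38, 5.57 and 5.63 in the Shh tumours (4.91 ± 0.41, adjusted p = 7.1e-06), and Igfbp3 read 9.09, 8.90 and 9.04 in the secondary tumours, against 5.21, 4.55 and 5.40 in the Shh tumours (3.95 ± 0.31, adjusted p = 4e-06). Fgf15, a fibroblast growth factor, read 9.46, 7.86 and 7.87 in the secondary tumours, against 4.21, 4.14 and 4.14 in the Shh tumours (4.23 ± 0.35, adjusted p = 5.9e-06). All Shh arrays of Fgf15 were below background. Mdk, midkine, a heparin-binding growth factor, read 4.55, 4.38 and 7.96 in the secondary tumours, against 11.60, 11.21 and 11.60 in the Shh tumours; Myc secondary 3 stood more than 3 units above the other secondary arrays and still below all Shh arrays (-5.84 ± 0.68, adjusted p = 7.7e-05). Ntrk3, the receptor of neurotrophin 3, fell by 5.06 on its brightest probe set and fell on 6 of its 7 probe sets. The other was called higher by 0.475, with means of 3.80 in the secondary and 3.33 in the Shh tumours, both below background.

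Of 11 prostaglandin genes 4 rose (36.4%, against 10.5% of all genes) and the other 7 did not pass (median 0.45). Ptgds, a prostaglandin D synthase, read 7.99, 9.96 and 9.99 in the secondary tumours, against 6.32, 5.71 and 5.91 in the Shh tumours (3.33 ± 0.53, adjusted p = 0.00071). Ptger3, a prostaglandin E receptor, read 4.86, 8.08 and 8.37 in the secondary tumours, against 3.09, 3.11 and 3.18 in the Shh tumours. Myc secondary 1 was close to background and the other secondary arrays far above it (3.98 ± 0.64, adjusted p = 0.00081). Ptger4, another such receptor, rose by 1.998, which was lost without Myc secondary 1 (1.15), Myc secondary 2, or any Shh array. Of 15 Notch pathway genes Mfng, a Notch glycosyltransferase, rose by 2.89, while the Notch targets Hey1 and Hes1 were lower; Hey1 fell by 2.24 and Hes1 fell by 1.995. On the 6 arrays alone neither Mfng nor Hes1 passed. Of 19 Wnt pathway genes 4 fell and 1 rose (26.3% called, near the 22.7% of all genes). Nkd1, a Wnt antagonist and target, read 4.84, 4.89 and 5.48 in the secondary tumours, against 9.83, 9.80 and 10.03 in the Shh tumours (-4.81 ± 0.24, adjusted p = 8.8e-08), Fzd7, a receptor, fell by 2.90, and Lgr5, a receptor of R-spondins, read 8.30, 8.33 and 8.25 in the secondary tumours, against 6.44, 5.87 and 4.86 in the Shh tumours (2.57 ± 0.36, adjusted p = 0.00028). Of 15 Bmp and Id genes 1 rose and 1 fell (13.3% called, against 22.7% of all genes): Bmpr1b, a Bmp receptor, by 2.11 and Id2 by 1.38.

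Interferon and MHC class I genes were lower. Of 11, 6 fell (54.5%, against 12.2% of all genes) and the other 5 did not pass (median -0.997). With the probe sets of each gene averaged 5 fell and 1 rose (median -0.46). Cxcl10, an interferon-induced chemokine, read 4.21, 6.31 and 5.28 in the secondary tumours, against 8.67, 8.96 and 8.78 in the Shh tumours (-3.54 ± 0.57, adjusted p = 0.0008). Ifit1, an antiviral protein, read 3.36, 3.38 and 3.63 in the secondary tumours, against 6.17, 6.86 and 7.29 in the Shh tumours (-3.32 ± 0.67, adjusted p = 0.0036), and all 3 secondary arrays were below background. Immediate early and stress genes, transcription factors and regulators that cells induce quickly after many stimuli, were lower too. Of 11, 8 fell (72.7%, against 12.2% of all genes), with a median of -1.34. Fosb read 5.94, 6.15 and 6.36 in the secondary tumours, against 9.04, 11.16 and 9.32 in the Shh tumours (-3.69 ± 0.87, adjusted p = 0.009), and Jun read 9.47, 9.52 and 9.86 in the secondary tumours, against 11.60, 12.82 and 12.15 in the Shh tumours (-2.57 ± 0.51, adjusted p = 0.0031). The highest array for both was Shh 2. The mean level of this list was 7.65, 8.42 and 8.51 on the secondary arrays, against 9.72, 11.03 and 9.89 on the Shh arrays. Atf3, a stress-induced factor, fell by 2.77, which did not pass without Myc secondary 1 (-2.18), Shh 2 or Shh 3. Of the list 3 genes fell without Myc secondary 1, 4 without Myc secondary 2 and 3 without Shh 2, and with the title run as a term no gene passed.

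**Figure D3:**
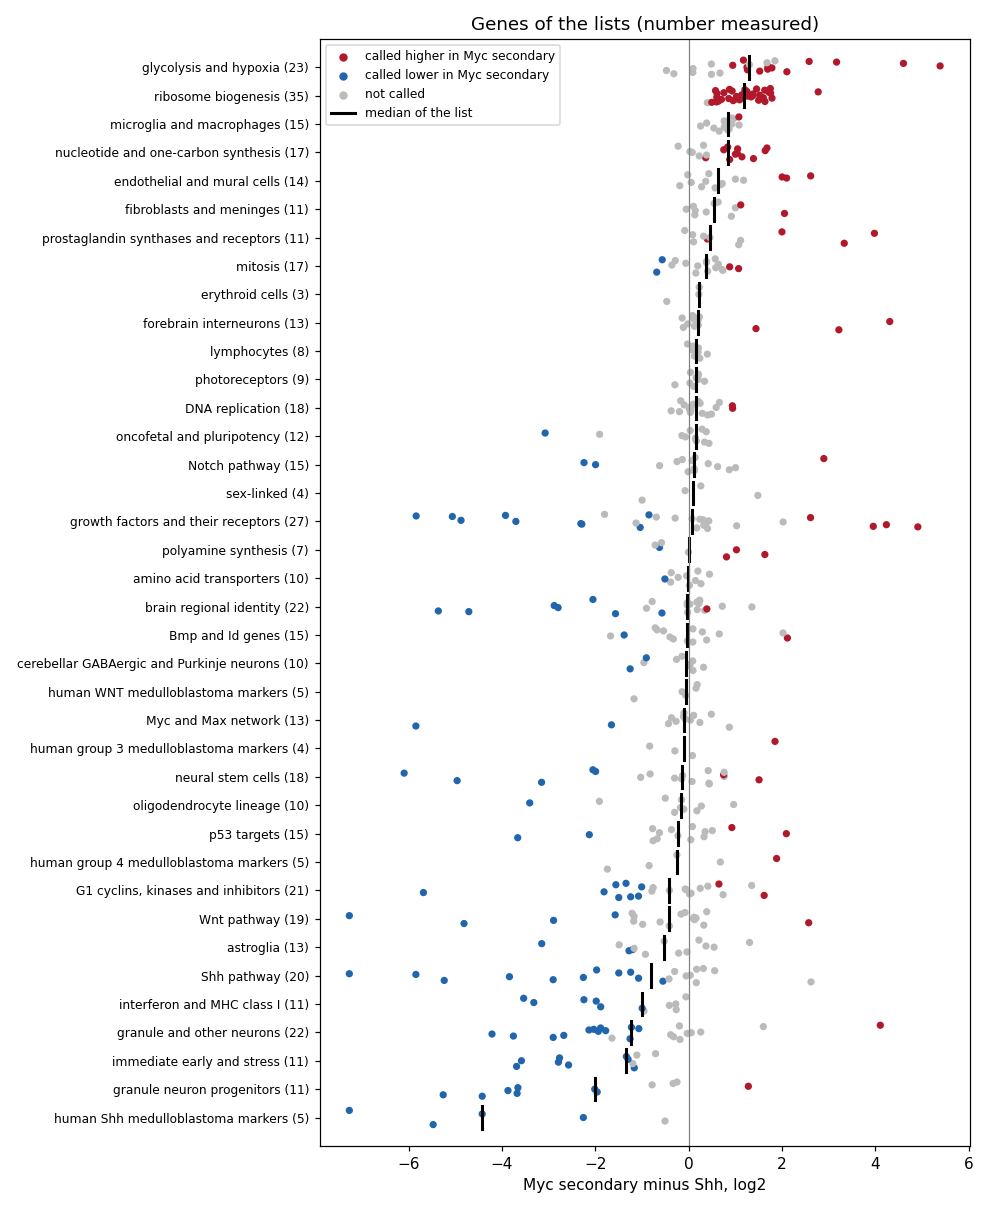
Differences of Myc secondary minus Shh tumours, in log2, for each measured gene of 38 lists, ordered by the list median. Red points passed the test as higher, blue as lower and grey did not pass; black bars are list medians. The median of the ribosome biogenesis list is 1.19 and that of the granule neuron progenitor list -2.01, against 0.075 over all genes.

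Markers of other cell types that the purified samples could still hold were compared in the same way. Of 15 microglia and macrophage genes 1 rose (6.67%, against 10.5% of all genes). This was Mrc1, a macrophage mannose receptor, with 4.45, 4.83 and 5.02 in the secondary tumours, against 3.67, 3.50 and 3.91 in the Shh tumours. Its secondary arrays lay on both sides of background and its Shh arrays below it. The median of the list was 0.84. The mean level of that list was 6.02, 7.28 and 6.57 on the secondary arrays, against 5.68, 5.99 and 5.86 on the Shh arrays. Without Myc secondary 1, Myc primary 3 and GFP-negative 3, the arrays least like their groups, 6 of the 15 rose, 4 rose without Myc secondary 1 alone and 5 rose after median centring. Of 14 endothelial and mural genes 3 rose (21.4%, against 10.5% of all genes): Acta2, smooth muscle actin, by 2.61, Emcn, an endothelial sialomucin, by 2.10 and Rgs5, a pericyte gene, by 2.001. The mean level of that list was 5.66, 5.80 and 5.87 on the secondary arrays, against 4.72, 4.84 and 5.26 on the Shh arrays. The call of Acta2 was lost without Shh 2 (2.09), and that of Rgs5 without any single array but Shh 3 (1.61 to 2.55 over all 6). Of 11 fibroblast and meningeal genes 2 rose (18.2%, against 10.5% of all genes). Col3a1, a collagen, rose by 2.05, a call that was lost without any single array but Myc secondary 1 (1.91 to 2.28 over all 6). Slc6a13, a meningeal transporter, rose by 1.12 close to background, a call lost without any single array but Myc secondary 1 (0.77 to 1.41). Of 13 astroglial genes 3 fell, led by Ndrg2 with 6.92, 4.60 and 5.26 in the secondary tumours, against 8.16, 8.71 and 9.35 in the Shh tumours (-3.15 ± 0.64, adjusted p = 0.0034), and of 10 genes of the oligodendrocyte lineage Olig1 fell by 3.41. None of the 8 lymphocyte genes passed in limma's test or had an unadjusted p below 0.05, and 7 were below background in both tumours. The same held for the 3 erythroid genes, 2 of them below background in both tumours. The part of these cells in the differences above was not tested.

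Among markers of the human medulloblastoma subgroups, 4 of 5 Shh markers fell (80.0%, against 12.2% of all genes). These were Sfrp1, Pdlim3, Atoh1 and Hhip, and the median of the 5 was -4.42. Pdlim3, a muscle LIM protein, read 4.05, 4.41 and 4.50 in the secondary tumours, against 8.62, 10.94 and 9.83 in the Shh tumours (-5.47 ± 0.68, adjusted p = 0.00012). None of 5 WNT markers passed or had an unadjusted p below 0.05, and 3 of them were below background in both tumours. Of 4 group 3 markers Npr3, a natriuretic peptide receptor, rose by 1.85 (5.29, 8.23 and 8.22 in the secondary tumours, against 4.71, 6.15 and 5.33 in the Shh tumours), with Myc secondary 1 inside the range of the Shh arrays. The difference in Npr3 was 2.83 without Myc secondary 1, and the call was lost without Myc secondary 2 or 3 or Shh 1 or 3. Of 5 group 4 markers Rbm24, an RNA-binding protein, rose by 1.88, a call lost without Myc secondary 1 (1.31), Myc secondary 2 or Shh 1. None of 9 photoreceptor genes, genes of the retina reported in group 3 tumours, passed or had an unadjusted p below 0.05, and 8 were below background in both tumours. Of 12 oncofetal and pluripotency genes 1 fell and the others did not pass (8.33% called, against 22.7% of all genes). Klf4, a Krüppel-like factor, fell by 3.08. That call was lost without Myc secondary 1, Myc secondary 2 or Shh 2 (-3.71 to -2.22 over the 6 arrays left out in turn).

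Among genes read by their brightest probe set, the largest rises were led by Htr3a, a serotonin-gated ion channel, with 10.31, 8.85 and 9.15 in the secondary tumours, against 3.82, 3.48 and 3.82 in the Shh tumours (5.73 ± 0.59, adjusted p = 3.4e-05). Lamp5, a membrane protein of some interneurons, read 10.15, 8.77 and 8.63 in the secondary tumours, against 4.11, 4.84 and 4.01 in the Shh tumours (4.86 ± 0.36, adjusted p = 2.2e-06). Nrp2, a semaphorin and VEGF receptor, read 9.48, 9.36 and 9.39 in the secondary tumours, against 4.59, 4.67 and 4.68 in the Shh tumours (4.76 ± 0.22, adjusted p = 4.7e-08). Trim71, a regulator of early embryonic cells that the microRNA let-7 represses, read 8.44, 7.72 and 7.83 in the secondary tumours, against 3.69, 3.66 and 3.62 in the Shh tumours (4.34 ± 0.47, adjusted p = 4.4e-05). The rule that chose the largest rises required arrays that did not overlap, so the lack of overlap in these genes is no finding. Their Shh means lay below background. The others of the 15 were Pdk1, Igfbp2, Fkbp11, Ydjc, Car12, Lhx8, Fgf15, Rgs16, Nefh, Lrrfip1 and Ptger3, with differences of 3.98 to 5.39.

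The largest falls after Sfrp1 were Tbata, a gene named for thymus, brain and testis, with 5.38, 4.59 and 4.42 in the secondary tumours, against 12.001, 12.09 and 11.52 in the Shh tumours (-7.07 ± 0.25, adjusted p = 5.8e-09), and Cavin2, a coat protein of caveolae, with 4.67, 4.84 and 4.63 in the secondary tumours, against 10.88, 11.36 and 11.54 in the Shh tumours (-6.54 ± 0.39, adjusted p = 4.1e-07). Cadps2, which primes dense-core vesicles for release in granule cells, read 3.79, 3.54 and 4.83 in the secondary tumours, against 11.05, 10.20 and 10.05 in the Shh tumours (-6.38 ± 0.51, adjusted p = 4.8e-06). B3gnt5, a glycosyltransferase of glycolipids, read 3.08, 3.11 and 3.63 in the secondary tumours, against 9.05, 8.26 and 10.22 in the Shh tumours (-5.90 ± 0.49, adjusted p = 6.7e-06). Nalcn, a sodium leak channel of neurons, fell by 5.44 and Ifi205, an interferon-inducible gene, fell by 5.63. The Shh arrays of these genes were all above 8, while most secondary arrays were below background.

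**Figure D4:**
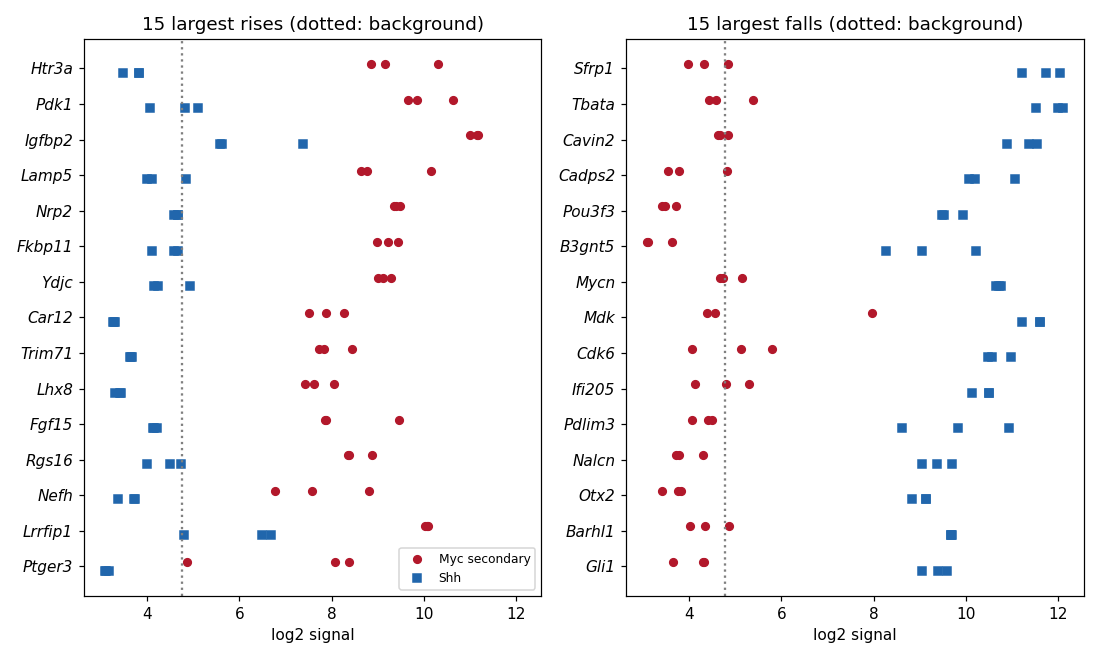
Log2 signal on each array of the 15 genes with the largest rises (left panel) and the 15 with the largest falls (right panel). Circles are Myc secondary arrays, squares are Shh arrays and the dotted line is the background of 4.77. Ptger3 and Mdk have 1 secondary array apart from the other 2.

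Called genes were unevenly placed in the genome. On chromosome 13, 149 of 655 genes rose (22.7%) and 39 fell (5.95%), and on chromosome 14, 15 of 596 rose (2.52%) and 168 fell (28.2%), against 10.5% and 12.2% over all chromosomes. Relative to their 15-array mean, genes above background on chromosome 14 had medians of -0.50 on each secondary array, against 0.33, 0.29 and 0.31 on the Shh arrays. On chromosome 13 those medians were 0.18, 0.17 and 0.22 on the secondary arrays, against -0.51, -0.42 and -0.18 on the Shh arrays. Otx2, Nalcn, Zic5, Ndrg2 and Rb1, named above as falling, lie on chromosome 14, while Nop16 and Rbm24, which rose, Irx2, which fell, and Ptch1, which did not pass, lie on chromosome 13. Single arrays also stood apart: Myc secondary 1 had a median of -0.47 on chromosome 7, against 0.08 and 0.07 on the other secondary arrays. DNA copy number was not measured.

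**Figure D5:**
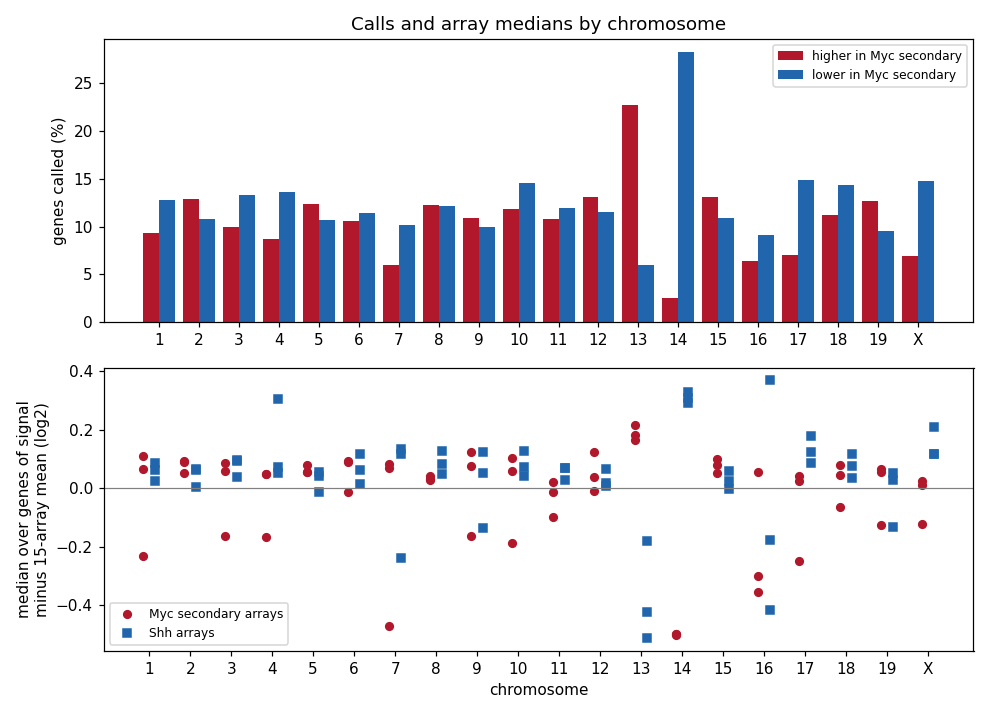
Upper panel: percent of the genes of each chromosome that rose (red) or fell (blue) in Myc secondary against Shh tumours. Lower panel: median over genes above background of the log2 signal minus the 15-array mean, for each Myc secondary array (circles) and Shh array (squares). Chromosomes 13 and 14 stand apart, at 22.7% higher and 28.2% lower.

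The term for the title run rested on GFP-negative 3, 1 of the arrays least like their groups. Its interquartile range was 2.99 log2 units, against 3.78 and 3.73 for the other GFP-negative arrays. With this term 40 of the 115 named genes lost their call, none of them changing direction. Those described above are Gli2, Hhip, Sox2, Dlx2, Lhx1, Mycl, Cdkn2c, Rb1, Bub1b, Ccnb2, Foxm1, Aen, Pmaip1, Oaz2, Sat1, Slc3a2, Mfng, Hey1, Hes1, Ptger3, Ptger4, Ifit1, Fosb, Jun, Atf3, Ndrg2, Olig1, Col3a1, Npr3, Rbm24, Klf4 and the 3 vascular genes. Gli1, Mycn, Sfrp1, Atoh1, Barhl1, Dlx1, Nop16, Ppat, Srm, Pdk1 and Cdk6 passed with the term too. On the 6 arrays alone Hhip, Lhx1, Ccnb2, Slc3a2, Slc6a13, Pola1, Ptger4, Npr3 and Rbm24 did not pass, besides the genes named above. By list, the term left 27 of 35 ribosome biogenesis genes higher, and 5 of 20 Shh pathway genes, 7 of 22 neuronal genes, 3 of 21 G1 genes and 2 of 11 interferon and MHC genes lower.

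The secondary tumours were also set beside the primary Myc tumours. Primary against Shh tumours gave 2642 genes (15.5%), in a comparison that shares the 3 Shh arrays, so likeness of the results is no independent support. Gli1 averaged 4.10 in secondary and 3.57 in primary Myc tumours, against 9.34 in Shh tumours, and Nop16 averaged 10.85 in secondary and 10.26 in primary, against 8.08 in Shh tumours. The direct test of secondary against primary tumours called 198 genes (1.16%), 73 higher (0.427%) and 125 lower (0.731%). Of the 115 genes named by rule 13 were among them. Dlx1 averaged 7.10 in secondary tumours, against 3.95 in primary tumours (3.15, adjusted p = 8.7e-07 in limma), and Pou3f3 averaged 3.54 in secondary tumours, against 7.54 in primary tumours (-4.005). Cdk6 averaged 4.99 in secondary tumours, against 8.22 in primary tumours (-3.24). On the 6 arrays of the 2 Myc groups alone 1 of the 13, Dlx1, passed.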

How the data were processed

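RNA of 15 mouse samples was measured with 1-colour HT_MG-430_PM arrays, 15 in all, which form 5 groups of 3. The values are the log2 signals that the authors deposited, made by robust multi-array averaging (RMA) with Partek 6.5, per the submitters' processing notes; the RMA settings were not given in the sources used here. They were used with no further scaling. Of 45141 probe sets, 104 controls, 15588 with no listed gene and 551 listed with several genes were left out. Of the other 28898, 28689 took their current symbol, and their chromosome, from the RefSeq annotation of GRCm38.p6, and 209 kept the listed one. The probe set with the highest mean over all arrays stood for its gene, which left 17097 genes, 7180 of them with a choice of probe sets.

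The comparison used lmFit and eBayes of limma 3.58.1 (R 4.3.3) in a 1-way fit of the 5 groups, with 10 residual and 2.611 prior degrees of freedom. Two-sided tests had Benjamini-Hochberg adjustment over all 28898 probe sets and a threshold of 0.05. Errors of differences are standard errors of the fit. The number of arrays limits the precision. The fit was tested on simulated data.

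In the 38 lists, which overlap, 500 of 563 genes could be measured, and the lists were described by counts and medians with no set test. Named genes were the 15 largest rises and falls with an adjusted p below 0.05, a log2 difference of at least 1 and arrays that did not overlap, without predicted genes; Myc, Mycn, Mycl, Atoh1, Gli1, Gli2, Ptch1, Cdkn2c and Trp53; and from every list the 4 genes, or fewer, that passed with the lowest adjusted p. Trp53 lacked a probe set assigned to it alone. The comparison, the lists and this rule were chosen with earlier results of these data known. Ncl, Imp4, Nop2 and Phb, the third Mycn probe set and the chromosomes were singled out after their values were seen.

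Alternatives were the adjustment over the brightest probe sets only, averaging the probe sets of each gene, dim probe sets left out (no group mean above 3.79, which left 24235), cyclic loess, arrays centred on their median, the 6 arrays alone, an intensity trend with robust variance (statmod 1.5.0), array weights, a term for the 2 runs of title numbers, a fit that left out Myc secondary 1, Myc primary 3 and GFP-negative 3, and each of the 6 arrays left out in turn. Tables and plots were made in Python 3.11.15 with pandas 2.3.3, numpy 2.4.6 and matplotlib 3.10.9.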

Additional observations from a re-analysis of the deposited data

Results flagged for a closer look

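Of the genes named for the comparison with Shh tumours, 13 also differed between the secondary and the primary Myc tumours in limma's test of that difference, with p adjusted over all probe sets; each value below is the log2 difference of secondary minus primary. Higher in the secondary tumours were the homeobox factors Dlx1 (3.15) and Lhx8 (1.04) and the serotonin-gated channel Htr3a (2.93). Lower in the secondary tumours were the POU factor Pou3f3 (-4.005), the glycosyltransferase B3gnt5 (-3.72), the kinase Cdk6 (-3.24), the chemokine Cxcl10 (-3.08), the homeobox factor Irx2 (-2.75), the antiviral gene Ifit3 (-2.08), the stem cell factor Sox9 (-1.67), the granule neuron factor Etv1 (-1.26), the Wnt antagonist Nkd1 (-1.07) and the neuronal gene Stmn3 (-0.998). In alternatives chosen after seeing the data, Dlx1 alone of the 13 passed on the 6 Myc arrays, where 18 genes passed in all, and 4 passed with a term for the title run (Dlx1, Cdk6, Pou3f3 and Sox9). All primary tumours belong to the earlier run of title numbers and all secondary tumours to the later one, so that run and generation cannot be told apart.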

How the results depend on the processing

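The alternatives moved the 1789 genes that rose and the 2086 that fell within 1.5 times, with these exceptions. Array weights gave 3474 that rose, beside 3062 that fell, and the term for the title run gave 852 that fell, beside 1743 that rose, of which 442 and 945 were shared with the counts on the deposited values; the cause was not tested. With the run term 67.2% of the calls were rises. Leaving out each of the 6 arrays in turn gave 1251 to 1889 that rose and 1578 to 1911 that fell. Centring on the array median moved the median difference of all genes to 0.219, against 0.075 on the deposited values, so that differences after centring are higher by that shift. Of the 115 named genes 69 kept their side of the threshold under all 16 alternatives, 19 changed it when some array was left out and 22 changed it only with the run term; none changed direction past the threshold. No paired analysis was possible because the labels give no replicate numbers that tie a secondary tumour to a Shh tumour. Signals below 4.77 could not be told from background, which covered both group means for 265 of the 3875 genes.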
